A study of Mus musculus with 16 samples.

Results

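The genes described here are the insulin-like growth factors *Igf1* and *Igf2*, the receptors *Igf1r* and *Insr*, and the binding proteins *Igfbp2*, *Igfbp3*, *Igfbp4*, *Igfbp5*, *Igfbp6* and *Igfbp7*. They were taken by gene symbol from the deposited count table, in which all 10 were found among 54347 genes. Of the 10, 6 had enough reads to be tested together with the other genes, 13150 in all, and 4 (*Igf2*, *Igfbp2*, *Igfbp3* and *Igfbp5*) did not. The study asked what activation of the long noncoding RNA gene *Gm15551* does to mature brown adipocytes at rest and under β-adrenergic stimulation. All groups were wt1-SAM cells, immortalized mouse brown preadipocytes with a stable CRISPRa SAM system, where a guide RNA directs transcriptional activators to a chosen gene. Differentiation was induced with rosiglitazone, T3, dexamethasone, insulin, indomethacin and IBMX, followed by insulin with rosiglitazone and then by rosiglitazone alone, so every group had been exposed to insulin. On day 4 cells received 250 ng of plasmid, either the empty guide vector (empty vector cells) or vectors coding for guides against *Gm15551* (sgRNA cells). For the last 24 h before harvest on day 7 they were left as control or stimulated with 1 µM isoproterenol, a non-selective β-adrenergic agonist. Replicates 3, 4, 5 and 6 occurred once in each of the 4 groups, giving 16 libraries of polyadenylated RNA. The model is limited to one cell line, and its control plasmid carried no guide. The sources do not say whether replicates came from separate differentiations, so p-values measure the spread between these libraries, which may be partly technical.

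Insulin-like growth factors are small secreted proteins related to insulin. IGF1 and IGF2 act mainly through the type 1 receptor encoded by *Igf1r*, a tyrosine kinase closely related to the insulin receptor, and both receptors signal through IRS adaptors, PI3K and Akt. Outside cells most of the factors are held by binding proteins, which set how much ligand reaches a receptor and are in turn cut by proteases such as the pappalysins. Adipose tissue makes *Igf1* in response to growth hormone, whose receptor (*Ghr*) acts through JAK2 and STAT5, and insulin and IGF1 drive the differentiation of preadipocytes.

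Total counts ranged from 9053521 to 16546187 per library, of which 11.7% to 51.8% fell on one ribosomal RNA gene. That share differed between groups, with medians of 24.4% in empty vector control, 36.7% in stimulated empty vector, 19.1% in sgRNA control and 22.03% in stimulated sgRNA libraries, and was highest in replicate 5 of the empty vector groups (47.3% and 51.8%). Values are CPM, counts relative to library sizes scaled by edgeR's TMM method, on which a count of 0 in a library allows up to between 0.166 and 0.390 CPM, counting error only. *Gm15551* lay between 0 and 1.35 CPM in empty vector libraries and between 1.04 and 3.92 CPM in sgRNA libraries, and *Ucp1*, the thermogenic uncoupling protein, between 0 and 0.979 CPM in control and 4.37 and 15.5 CPM in stimulated libraries. The 8 adipocyte markers on the list used here (*Fabp4* and *Adipoq* among them) were all tested and summed to between 12757 and 27645 CPM. The 10 preadipocyte and fibroblast markers summed to between 32.1 and 154 CPM, of which *Ly6a* reached 81.8 CPM. The 5 macrophage markers summed to between 6.44 and 22.6 CPM, nearly all of it *Cd68*, while *Ptprc* and *Adgre1* held 6 and 1 counts in all, and the 5 endothelial markers summed to between 1.42 and 3.15 CPM, with *Emcn* at 0. A gene was called changed when edgeR's quasi-likelihood test gave a Benjamini-Hochberg adjusted p under 0.05 and the absolute log2 fold change exceeded 0.5. In such bulk libraries, fewer cells that express a gene and less RNA per cell cannot be told apart.

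*Igf1* was the only member called changed after stimulation. It encodes the IGF1 peptide and is annotated as protein-coding gene ENSMUSG00000020053.18 on the plus strand of chromosome 10:87858265-87937042 (GRCm38). In empty vector cells, replicates 3, 4, 5 and 6 held 75.4, 52.9, 45.3 and 50.7 CPM of *Igf1* as control and 31.8, 22.2, 11.7 and 21.4 CPM after isoproterenol. In sgRNA cells, the same replicates held 77.7, 49.3, 40.5 and 43.6 CPM as control and 25.7, 22.7, 15.8 and 17.4 CPM after isoproterenol. Every stimulated library lay below every control library, and replicate 3 was the highest in all 4 groups. Averaged over both plasmids, *Igf1* fell 2.58-fold (log2 fold change −1.37, SE 0.19, edgeR adjusted p 0.000548). With the ribosomal RNA share as an added term of the model, the log2 fold change of *Igf1* was −1.29 (edgeR adjusted p 0.000892). *Igf1* was lower in 8 of 8 pairs of the same plasmid and replicate number, with log2 differences from −1.94 to −1.11. By size of the log2 fold change it ranked 122nd among the 13150 genes tested. *Igf1* was the only one of the 6 tested members called lower, against 1.32% of all genes tested, and 0 of 6 were called higher, against 1.33%. With the replicate number as a block in the model, the same single member was called, against 2.61% of genes lower and 3.09% higher.

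**Figure D1:**
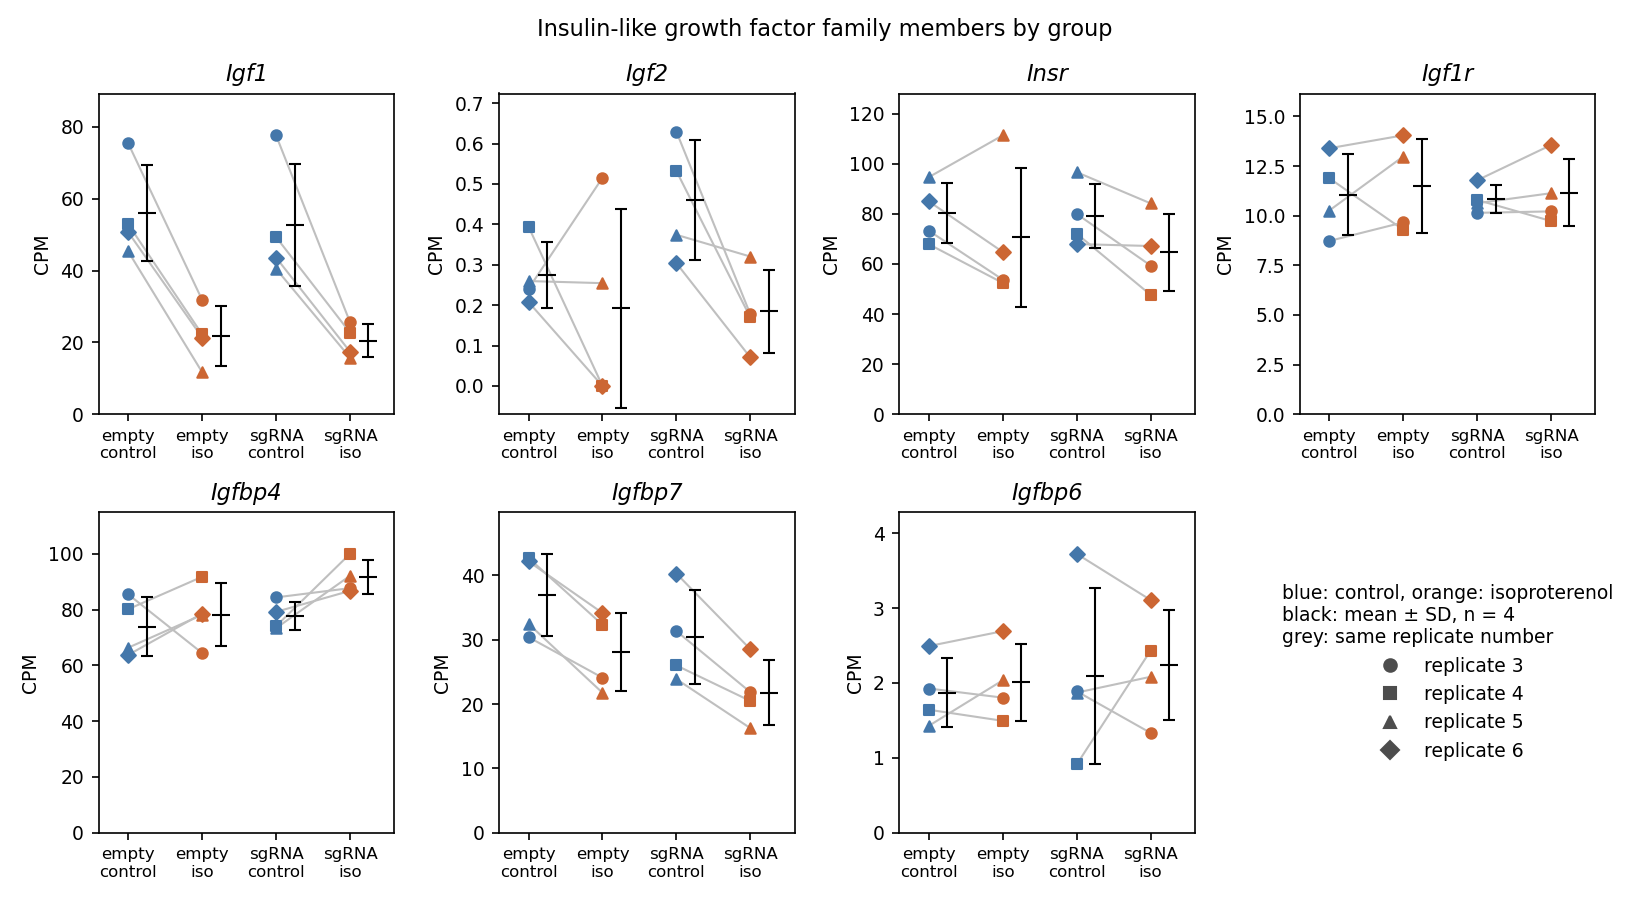
CPM (y axis) of the 7 members with more than 2 counts in all, by group (x axis, 4 libraries each). Symbols mark replicate numbers, grey lines join control and stimulated cultures of one plasmid and replicate, and black bars give mean ± SD. In *Igf1* the control libraries lie between 40.5 and 77.7 CPM and the stimulated ones between 11.7 and 31.8 CPM, whereas the other panels overlap between treatments.

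The estimated fall of *Igf1* was similar with both plasmids. In empty vector cells the mean was 56.1 ± 13.3 CPM (SD, n = 4) in control and 21.8 ± 8.22 CPM (SD, n = 4) in stimulated libraries, a log2 fold change of −1.37 (SE 0.27, edgeR adjusted p 0.0225). In sgRNA cells it was 52.8 ± 17.0 CPM (SD, n = 4) and 20.4 ± 4.60 CPM (SD, n = 4), a log2 fold change of −1.37 (SE 0.27, edgeR adjusted p 0.0245). *Igf1* was the 1 member called lower within each plasmid, against 0.373% of genes in empty vector cells and 0.297% in sgRNA cells. With the replicate block these shares were 2.15% and 1.83%, and again *Igf1* alone was called. The interaction, which is the log2 fold change in sgRNA cells minus that in empty vector cells, was −0.0041 (SE 0.37), and 0.03 (SE 0.15) with the block. Within one plasmid, the call without the block rested on few libraries: it was lost in empty vector cells without replicate 4, 5 or 6, or without control replicate 3 or stimulated replicate 4 or 6 alone (adjusted p up to 0.229). It was lost in sgRNA cells without replicate 4 or 6, or without control replicate 3 or stimulated replicate 4, 5 or 6 alone (adjusted p up to 0.194), while the log2 fold change stayed between −1.59 and −1.13 in both. With the block, *Igf1* stayed called within each plasmid when any one replicate number was left out (edgeR adjusted p up to 6.93e-05 in empty vector and 8.89e-05 in sgRNA cells). The call averaged over plasmids was kept in each of these cases.

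Across the 16 libraries the level of *Igf1* followed that of *Ghr*, the growth hormone receptor gene on the minus strand of chromosome 15:3317760-3583492. Replicates 3, 4, 5 and 6 held 192, 167, 117 and 152 CPM of *Ghr* in empty vector control and 90.6, 67.9, 47.2 and 66.5 CPM in stimulated empty vector libraries. In sgRNA cells they held 189, 155, 117 and 127 CPM as control and 74.9, 70.7, 55.7 and 57.5 CPM after isoproterenol. Replicate 3 was the highest and replicate 5 the lowest in each group, an order that *Igf1* shared at both ends. Of 12109 genes with a mean of at least 1 CPM, *Ghr* had the highest Pearson correlation with *Igf1* in log2 CPM (0.988 over 16 libraries), where the median gene had 0.01 and the 99th percentile was 0.76. The 8 control libraries alone gave 0.915, the 8 stimulated ones 0.993, and deviations from the group means 0.952. The next 2 genes were *Adamts12*, a secreted metalloprotease gene (0.947), and *Pdia4*, an endoplasmic reticulum disulfide isomerase gene (0.946), which gave 0.806 and 0.802 on deviations from the group means. These values describe libraries that share replicate numbers, treatment and a common depth scale, and they carry no test.

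**Figure D2:**
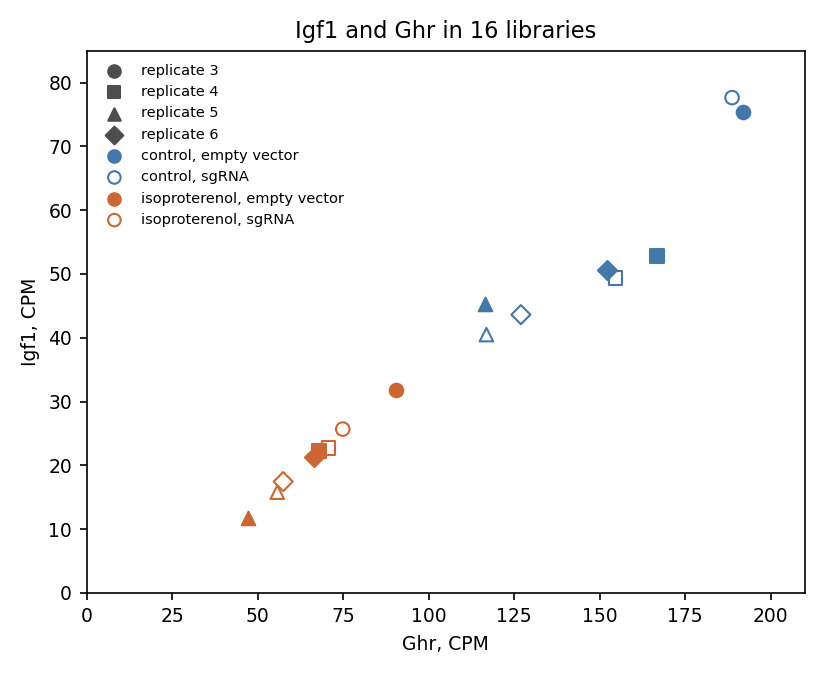
*Igf1* (y axis, CPM) against *Ghr* (x axis, CPM) in the 16 libraries, with blue for control, orange for isoproterenol, filled symbols for the empty vector, open symbols for sgRNA and symbol for replicate number. Control libraries lie above 40 CPM of *Igf1* and stimulated ones below 32 CPM, and in each group replicate 3 is the highest and replicate 5 the lowest for both genes.

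Since *Igf1* and *Ghr* moved together, their promoters are shown with those of *Igfbp7* and *Igfbp4*, the binding protein genes with the highest levels. Each sequence is the 250 bases before a RefSeq transcription start (GRCm38.p6), read 5′ to 3′ on the strand of the gene. The table matched 9 of the 10 members and held 2 starts for *Ghr*. The *Igf1* start lies inside the GENCODE gene, downstream of its annotated 5′ end. Capitals mark any match, on either strand, to a cAMP response element (TGACGTCA), its half-site (TGACG, also contained in the former), a STAT site (TTCNNNGAA), a FOXO site (GTAAACA), an NR4A site (AAAGGTCA), a TATA box (TATAAA) or a GC box (GGGCGG).
Igf1, plus strand, chr10:87860861-87861110: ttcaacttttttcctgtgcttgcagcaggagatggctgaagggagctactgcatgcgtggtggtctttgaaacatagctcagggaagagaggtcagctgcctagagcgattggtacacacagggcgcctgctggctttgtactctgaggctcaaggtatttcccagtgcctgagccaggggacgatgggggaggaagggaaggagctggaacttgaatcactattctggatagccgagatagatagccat
Ghr, minus strand, chr15:3583353-3583602: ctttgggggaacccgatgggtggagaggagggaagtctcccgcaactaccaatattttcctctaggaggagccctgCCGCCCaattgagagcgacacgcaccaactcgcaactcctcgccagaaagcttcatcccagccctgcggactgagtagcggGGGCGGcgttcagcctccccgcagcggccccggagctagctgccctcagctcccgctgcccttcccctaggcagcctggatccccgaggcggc
Ghr, minus strand, chr15:3581843-3582092: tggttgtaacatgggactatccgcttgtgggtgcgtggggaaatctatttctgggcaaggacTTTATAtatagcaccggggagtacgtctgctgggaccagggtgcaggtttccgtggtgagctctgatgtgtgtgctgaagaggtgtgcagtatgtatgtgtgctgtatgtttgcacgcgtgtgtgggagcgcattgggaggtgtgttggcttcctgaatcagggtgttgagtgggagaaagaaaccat
Igfbp7, minus strand, chr5:77408046-77408295: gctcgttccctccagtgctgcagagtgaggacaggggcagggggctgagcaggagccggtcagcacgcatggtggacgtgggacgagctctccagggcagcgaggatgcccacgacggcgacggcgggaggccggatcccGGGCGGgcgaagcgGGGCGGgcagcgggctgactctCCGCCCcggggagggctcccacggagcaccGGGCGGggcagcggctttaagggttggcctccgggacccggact
Igfbp4, plus strand, chr11:99040994-99041243: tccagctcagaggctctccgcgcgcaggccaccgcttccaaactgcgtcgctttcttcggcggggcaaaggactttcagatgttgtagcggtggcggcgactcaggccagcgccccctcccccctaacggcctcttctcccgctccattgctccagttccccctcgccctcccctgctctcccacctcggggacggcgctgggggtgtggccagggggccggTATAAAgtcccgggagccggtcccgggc
The *Igf1* window held 0 matches to these motifs, and neither *Ghr* window held the cAMP response element, its half-site, the STAT, the FOXO or the NR4A letters. The first *Ghr* window held 2 GC boxes and the second 1 TATA box, and *Igfbp7* held 4 GC boxes and *Igfbp4* 1 TATA box. Among 32851 promoter windows of the same length in the table, 1.55% held the cAMP response element, 17.8% its half-site, 7.02% the STAT, 3.17% the FOXO, 1.34% the NR4A, 12.4% the TATA and 32.7% the GC box letters. G and C made up 52.8% of the *Igf1* window and 74% of the *Igfbp7* window, against a median of 52.4% over all windows. These matches describe letters in a window and nothing about binding.

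*Igf2*, the fetal growth factor gene on the minus strand of chromosome 7:142650766-142666816, was near the limit of detection and was not tested with the other genes. Replicates 3, 4, 5 and 6 held 4, 6, 2 and 2 counts in empty vector control and 4, 0, 2 and 0 counts in stimulated empty vector libraries. In sgRNA cells they held 9, 7, 5 and 4 counts as control and 2, 3, 4 and 1 counts after isoproterenol. The means were 0.276 ± 0.082 and 0.192 ± 0.246 CPM (SD, n = 4) in empty vector and 0.460 ± 0.148 and 0.185 ± 0.103 CPM (SD, n = 4) in sgRNA cells, and the ranges of control and stimulated libraries overlapped. *Igf2* was lower after isoproterenol in 7 of 8 pairs, with a mean difference of −0.18 CPM (SD 0.24, exact two-sided sign-flip permutation test over pairs, p = 0.0859, where the smallest possible is 0.00781). Between plasmids, 7 of 8 pairs had more *Igf2* with the guides, with a mean difference of 0.088 CPM (SD 0.20, exact sign-flip permutation p = 0.273). Pairs of one replicate number were treated as independent in this test. The protein-coding model *Gm49394* shares 3596 exon bases with *Igf2* on the same strand and held 2 counts in all against 55 for *Igf2*, and a split of reads between them would not be seen.

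The receptors were not called changed, with or without the block. *Insr*, the insulin receptor gene (ENSMUSG00000005534.10, minus strand of chromosome 8:3122061-3279617), held 73.2, 67.9, 94.7 and 84.9 CPM in replicates 3, 4, 5 and 6 of empty vector control and 53.7, 52.4, 111 and 64.8 CPM in the stimulated libraries. In sgRNA cells *Insr* stood at 80.0, 72.1, 96.6 and 67.9 CPM as control and at 59.3, 47.6, 84.2 and 67.2 CPM after isoproterenol. Replicate 5 was the highest in every group, and control and stimulated libraries overlapped. The log2 fold change of *Insr* under isoproterenol was −0.24 (SE 0.16, edgeR adjusted p 0.478), with a lower value in 7 of 8 pairs. With the replicate block it was −0.27 (SE 0.08, edgeR adjusted p 0.0225), inside the bound of 0.5 on the log2 scale. Over all settings it lay between −0.39 without replicate 5 of stimulated empty vector cells and −0.18 without replicate 4 (adjusted p from edgeR or DESeq2 between 0.00433 and 0.847), and *Insr* was not called in any of them. *Igf1r*, the type 1 IGF receptor gene (ENSMUSG00000005533.10, plus strand of chromosome 7:67952827-68233668), ranged from 8.73 to 13.4 CPM with a median of 10.7 CPM in control and from 9.30 to 14.0 CPM with a median of 10.7 CPM in stimulated libraries. Its log2 fold change was 0.05 (SE 0.12, edgeR adjusted p 0.885), a value that changed sign when single libraries were left out, and 6 of 8 pairs were higher. The ratio of *Insr* to *Igf1r* per length of merged exons was 9.06 ± 2.03 (SD, n = 4) in control and 7.45 ± 2.10 (SD, n = 4) in stimulated empty vector cells, and 8.98 ± 1.77 (SD, n = 4) and 7.09 ± 1.52 (SD, n = 4) in sgRNA cells. This ratio was lower in the stimulated culture of all 8 pairs, with a mean log2 difference of −0.32 (SD 0.20) given as a description.

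Among the binding proteins, *Igfbp7* was lower after isoproterenol in every pair but, averaged over plasmids, was not called changed with or without the block. *Igfbp7* encodes a secreted protein related to the IGF binding proteins that also binds insulin, and lies on the minus strand of chromosome 5:77349240-77408041 (ENSMUSG00000036256.13). Replicates 3, 4, 5 and 6 held 30.4, 42.7, 32.5 and 42.2 CPM in empty vector control and 24.1, 32.3, 21.8 and 34.2 CPM in stimulated empty vector libraries. In sgRNA cells *Igfbp7* was at 31.3, 26.0, 23.9 and 40.3 CPM in control and at 21.9, 20.5, 16.3 and 28.5 CPM in stimulated libraries. Treatments overlapped, from 23.9 to 42.7 CPM in control and from 16.3 to 34.2 CPM in stimulated libraries, but within a pair the stimulated one was lower in 8 of 8, with log2 differences from −0.57 to −0.30. The log2 fold change of *Igfbp7* was −0.43 (SE 0.14, edgeR adjusted p 0.105), and with the block −0.44 (SE 0.08, edgeR adjusted p 0.00097), where it passed the adjusted p but not the bound of 0.5. In sgRNA cells alone *Igfbp7* passed both in 1 setting, the blocked fit without replicate 4 (log2 fold change −0.52, edgeR adjusted p 0.0154). The exons of *Igfbp7* share 85 bases with *Polr2b* on the other strand, a gene with 19311 counts in all against 6013 for *Igfbp7*, and the use of strand in counting was not stated.

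*Igfbp4*, a binding protein that inhibits IGF action until it is cut, had the smallest spread of the tested members over the 16 libraries (SD of log2 CPM 0.19). The gene lies on the plus strand of chromosome 11:99041244-99054392 (ENSMUSG00000017493.12). Replicates 3, 4, 5 and 6 held 85.5, 80.1, 66.3 and 63.8 CPM of *Igfbp4* in empty vector control and 64.4, 91.8, 78.1 and 78.6 CPM in stimulated libraries. In sgRNA cells the values were 84.4, 74.05, 73.3 and 79.2 CPM in control and 87.7, 100.0, 92.1 and 86.7 CPM in stimulated libraries. The 4 stimulated sgRNA libraries lay above the 4 control sgRNA libraries, whereas the empty vector groups overlapped. The log2 fold change of *Igfbp4* under isoproterenol was 0.16 (SE 0.08, edgeR adjusted p 0.327), with 7 of 8 pairs higher. It was 0.08 (SE 0.11) in empty vector and 0.24 (SE 0.11) in sgRNA cells, and the difference between these was 0.16 (SE 0.16, edgeR adjusted p 1.00). *Igfbp6*, whose protein binds IGF2 more tightly than IGF1 (ENSMUSG00000023046.6, plus strand of chromosome 15:102144362-102149511), was low, from 0.912 to 3.72 CPM in control and from 1.33 to 3.11 CPM in stimulated libraries. Its log2 fold change was 0.10 (SE 0.26, edgeR adjusted p 0.900), with 4 pairs higher and 4 lower, and it changed sign without single libraries.

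**Figure D3:**
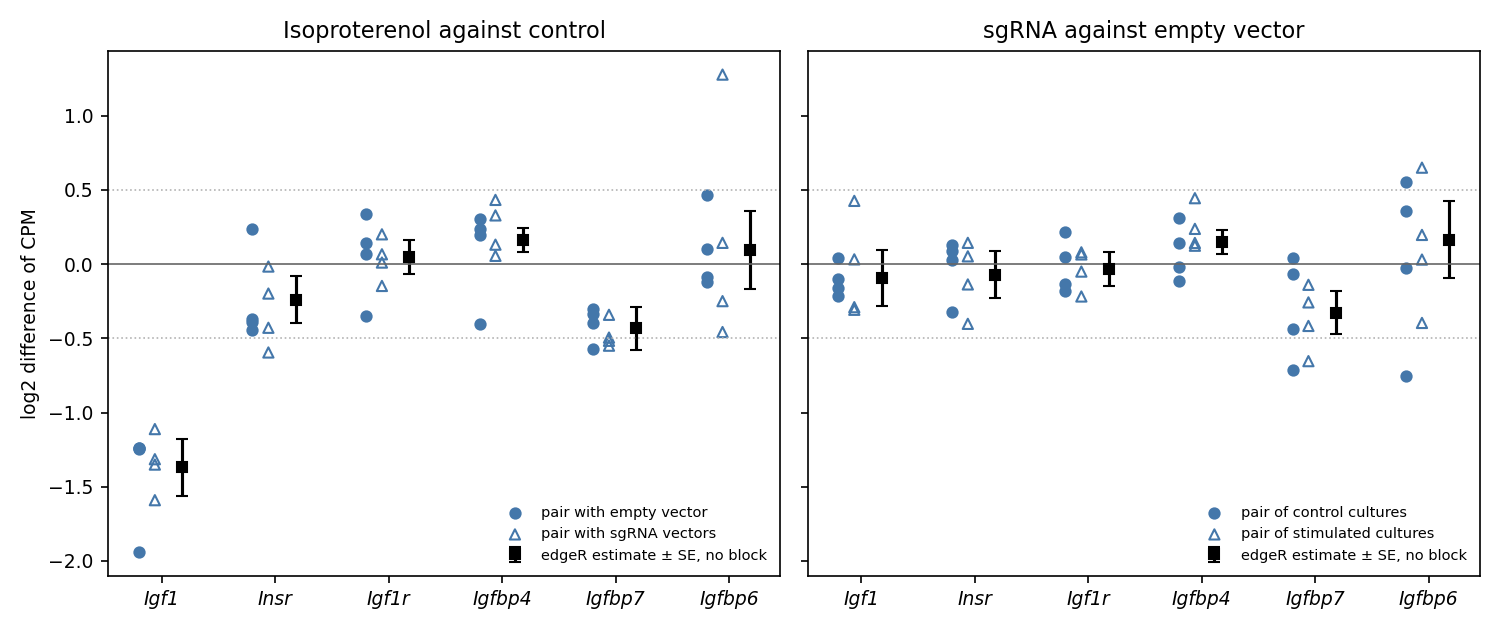
Log2 difference of CPM (y axis) within the 8 pairs of the same replicate number for the 6 tested members (x axis), for isoproterenol against control (left, circles with the empty vector, triangles with the guides) and sgRNA against empty vector (right, circles for control, triangles for stimulated cultures). Black squares give edgeR's estimate ± SE without the block and dotted lines the bound of 0.5. All 8 pairs lie below zero for *Igf1* (−1.94 to −1.11) and *Igfbp7* (−0.57 to −0.30) on the left.

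*Igfbp2*, *Igfbp3* and *Igfbp5* were not detected beyond single reads, at 1, 1 and 2 counts over the 16 libraries. *Igfbp2* and *Igfbp5* are neighbours on chromosome 1 (72824503-72852474 and 72857932-72874884) and *Igfbp3* lies on chromosome 11:7206086-7213923. All of these reads came from stimulated libraries, with 1 read each of *Igfbp2* and *Igfbp3* in sgRNA cells and 1 of *Igfbp5* with each plasmid. The control libraries were all at 0 for these 3 genes, which allows up to 0.390 CPM in replicate 5 of empty vector control.

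Without the block, edgeR called 0 of the 6 tested members changed under the guides against *Gm15551*, and 0% of all genes. *Gm15551* itself was thus not called either, so this count of 0 cannot show that the members were unchanged. At an unadjusted p under 0.05 edgeR listed 1 member (and 437 genes in all), and DESeq2 called 0 members, against 0.0761% of genes. With the replicate block 0 members were called, against 0.266% of genes. The member below 0.05 was *Igfbp7*, with a log2 fold change of −0.33 (SE 0.14, edgeR adjusted p 1.00) between sgRNA and empty vector cells and lower values in 7 of 8 pairs. With the block *Igfbp7* had the same log2 fold change (SE 0.08, edgeR adjusted p 0.0859). *Igfbp4* gave 0.15 (SE 0.08) with 6 of 8 pairs higher, *Igf1* −0.09 (SE 0.19), *Insr* −0.07 (SE 0.16), *Igf1r* −0.03 (SE 0.12) and *Igfbp6* 0.17 (SE 0.26), all with edgeR adjusted p of 1.00. Adjusted for the share of ribosomal RNA, whose group medians were lower with the guides, the guide effect on *Insr* was 0.27, on *Igf1r* 0.070, on *Igf1* −0.29, on *Igfbp4* 0.0062, on *Igfbp6* 0.20 and on *Igfbp7* −0.40, none of them called. Over all settings the guide effect on *Igfbp7* lay between −0.43 and −0.19, the latter without replicate 4, and was not called. In the cell type marker lists, edgeR called 0 genes under the guides without the block and 1 with it, the preadipocyte marker *Ly6a*. Its log2 fold change was −0.74 (edgeR adjusted p 0.00491 with the block, lower in 8 of 8 pairs). Of the 6 tested preadipocyte and fibroblast markers, 4 had negative and 2 positive log2 fold changes without the block (*Col3a1* at 0.35 and *Pdgfra* at 0.05). The part of these markers in the lower values of *Igfbp7* was not tested. The interaction of guide and isoproterenol was called in 0 members by edgeR, without and with the block, and by DESeq2, against 0% of genes in each of these. At an unadjusted p under 0.05 the interaction listed 0 members, out of 52 genes in all without the block and 199 with it.

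For *Igf1r*, *Insr* and *Igfbp6*, the replicate number held more of the variance of log2 CPM than isoproterenol and the plasmid together. It held 67.4% of the variance of *Igf1r*, 63.3% of that of *Insr* and 58.3% of that of *Igfbp6*. For *Igfbp7* it held 37.0%, against 32.6% for isoproterenol and 18.5% for the plasmid. For *Igf1* it held 19.1%, against 77.4% for isoproterenol and 0.21% for the plasmid. For *Igfbp4* the largest share, 44.7%, lay outside these terms, with 13.1% for replicate, 18.8% for isoproterenol and 18.9% for the plasmid. The replicate number has more levels than the treatment or the plasmid. It therefore takes up more of a random spread, and the shares were not adjusted for this. *Igf1* was highest in replicate 3 (mean of its 4 libraries 52.6 CPM, against 28.3 CPM in replicate 5) and *Insr* highest in replicate 5 (96.7 CPM, against 60.0 CPM in replicate 4). Replicate 6 was the highest for *Igf1r* (13.2 CPM), *Igfbp6* (3.00 CPM) and *Igfbp7* (36.3 CPM). In replicate 6 the 10 preadipocyte and fibroblast markers summed to between 97.8 and 154 CPM, against 32.1 to 80.3 CPM in the other replicates, and the 6 smooth muscle and mural markers to between 23.0 and 39.1 CPM, against 4.19 to 18.8 CPM. The adipocyte markers summed to between 12757 and 20437 CPM in replicate 6 and to between 16959 and 27645 CPM elsewhere, and the part of these differences in the levels of the 3 members was not tested. Across members, *Igf1* and *Insr* had a correlation of 0.07 over 16 libraries and of −0.71 on deviations from the group means, and *Igf1* and *Igfbp7* of 0.56 and 0.12, as descriptions of libraries with shared replicate numbers. The genes whose log2 CPM was most like that of *Insr* were *Cux1* (0.971), *Afap1* (0.963) and *Brpf3* (0.958), and those most like *Igfbp7* were *Cdca8* (0.898), *Tmem176b* (0.881) and *Prmt2* (0.864).

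Levels can be compared between genes only per length, here as CPM per kilobase of merged exons in GENCODE. *Igfbp7* stood highest with 24.2 ± 6.55 (SD over 16 libraries), followed by *Igfbp4* with 18.2 ± 2.35, *Insr* with 5.36 ± 1.27, *Igf1* with 3.81 ± 2.04, *Igfbp6* with 1.85 ± 0.635 and *Igf1r* with 0.663 ± 0.097. In this order, 3 pairs of neighbours overlapped. *Igfbp7* was above *Igfbp4* in 13 of 16 libraries, in 8 of 8 control but 5 of 8 stimulated ones. *Insr* was above *Igf1* in 5 of 8 control and 8 of 8 stimulated libraries, and *Igf1* above *Igfbp6* in 8 of 8 control and 4 of 8 stimulated libraries. *Igfbp4* was above *Insr*, and *Igfbp6* above *Igf1r*, in all 16. The merged length counts every annotated exon, 9904 bases for *Igf1* and 1209 for *Igfbp7*, so a gene that uses few of its exons is understated.

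**Figure D4:**
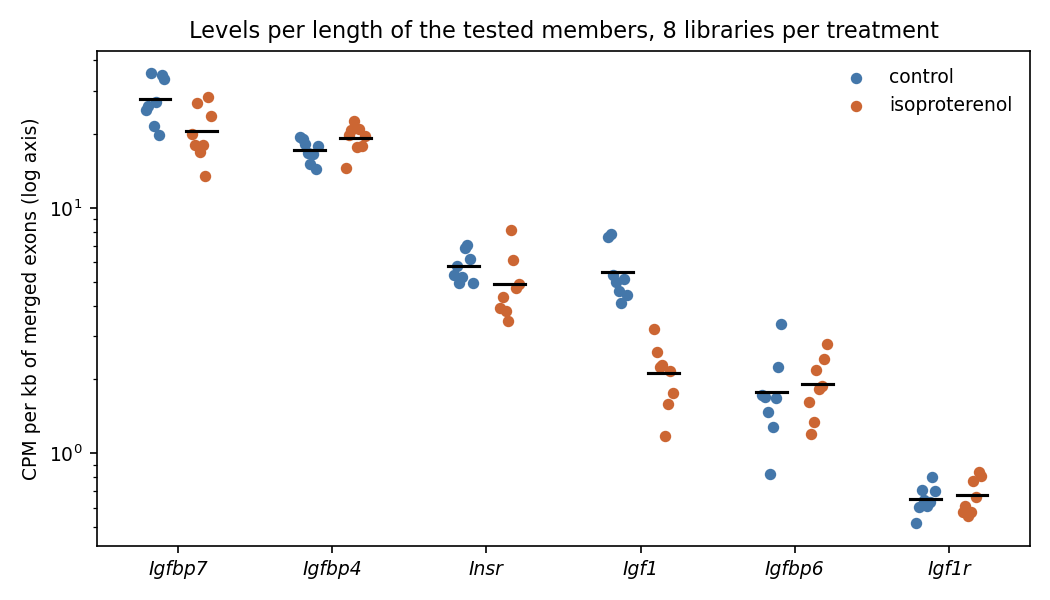
CPM per kilobase of merged exons (y axis, log scale) of the 6 tested members (x axis), 8 control (blue) and 8 stimulated (orange) libraries each, with the mean as a black line. *Igf1* moves from beside *Insr* in control libraries to the level of *Igfbp6* in stimulated ones.

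The other genes of the pathway were read from a list of 59, of which 46 were tested. Under isoproterenol 3 fell and 1 rose, against 1.32% and 1.33% of all genes, and the median log2 fold change of the 46 was 0.01, beside 0.00 over all genes tested. With the block 3 fell and 3 rose, against 2.61% and 3.09%. Without replicate 3 the count was 2, because *Cish* (edgeR adjusted p 0.0577) and *Pik3r1* (edgeR adjusted p 0.156) were lost. In the growth hormone axis, with 8 of 8 genes tested, *Ghr* fell 2.29-fold (log2 fold change −1.19, SE 0.14, edgeR adjusted p 8.73e-05), in 8 of 8 pairs. *Cish*, a feedback inhibitor in this axis, fell by 1.04 on the log2 scale (SE 0.17, edgeR adjusted p 0.00215). Its means in control and stimulated libraries were 3.61 and 1.73 CPM with the empty vector and 3.35 and 1.65 CPM with the guides. *Socs2*, another inhibitor of growth hormone signalling, rose 2.29-fold (log2 fold change 1.19, SE 0.12, edgeR adjusted p 1.57e-05), with means of 15.8 and 32.3 CPM with the empty vector and 16.5 and 42.2 CPM with the guides. Its 8 stimulated libraries lay between 27.2 and 58.9 CPM and its 8 control libraries between 14.3 and 19.2 CPM. *Jak2*, *Stat5a*, *Stat5b*, *Socs1* and *Socs3* did not pass the test.

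Of the 30 adaptor and PI3K-Akt genes 28 were tested, and 1 was called lower under isoproterenol (3.57%), against 1.32% of all genes. With the block 1 was called lower as well, against 2.61% of all genes. *Pik3r1*, the regulatory subunit p85 alpha of PI3K, fell from a mean of 105 to 61.7 CPM with the empty vector and from 101 to 60.1 CPM with the guides (log2 fold change −0.76, SE 0.16, edgeR adjusted p 0.0134, lower in 8 of 8 pairs). The insulin receptor substrates *Irs1* and *Irs2* had log2 fold changes of −0.13 (SE 0.20) and 0.18 (SE 0.16), with edgeR adjusted p of 0.815 and 0.644. The IGF2 scavenger receptor *Igf2r* was at 0.14 (SE 0.16, edgeR adjusted p 0.726), and 0 of the 5 tested genes of receptor handling were called in edgeR without or with the block. Of 9 genes for ligand availability 2 had enough reads, the pappalysins *Pappa* and *Pappa2*, proteases that cut binding proteins. *Pappa2* had a log2 fold change of 1.76 (SE 0.59, edgeR adjusted p 0.112) without the block and 1.44 (SE 0.24, edgeR adjusted p 0.000508) with it. Its values after isoproterenol were 1.29, 1.55, 3.05 and 13.4 CPM in replicates 3, 4, 5 and 6 of empty vector cells, against 1.02, 0.788, 1.04 and 3.01 CPM in control. In sgRNA cells *Pappa2* stood at 2.04, 1.47, 4.24 and 15.0 CPM after isoproterenol, against 0.979, 1.52, 0.898 and 3.34 CPM in control, so the differences were largest in replicates 5 and 6, and 1 of 8 pairs was lower. Without replicate 6 the log2 fold change of *Pappa2* was 1.10 without and 1.00 with the block (edgeR adjusted p 0.0958 and 0.0362), and over all settings it lay between 1.00 and 2.05. *Pappa* was at most 1.41 CPM, with a log2 fold change of 1.38 (SE 0.62, edgeR adjusted p 0.256) without the block and 1.43 (SE 0.35, edgeR adjusted p 0.00868) with it. Its call in the blocked fit was lost without replicate 3 or 5 (edgeR adjusted p 0.0517 and 0.0709). *Pappa* had a value in 28 settings, against 30 for *Pappa2*. Over these 28 its log2 fold change lay between 1.08 and 2.21, the highest without replicate 6 of empty vector control (edgeR adjusted p 0.0470). Under the guides against *Gm15551*, edgeR called 0 of the 46 genes without the block, against 0% of all genes, and 0 with it, against 0.266%. DESeq2 called 0 of the 46, against 0.0761% of all genes.

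**Figure D5:**
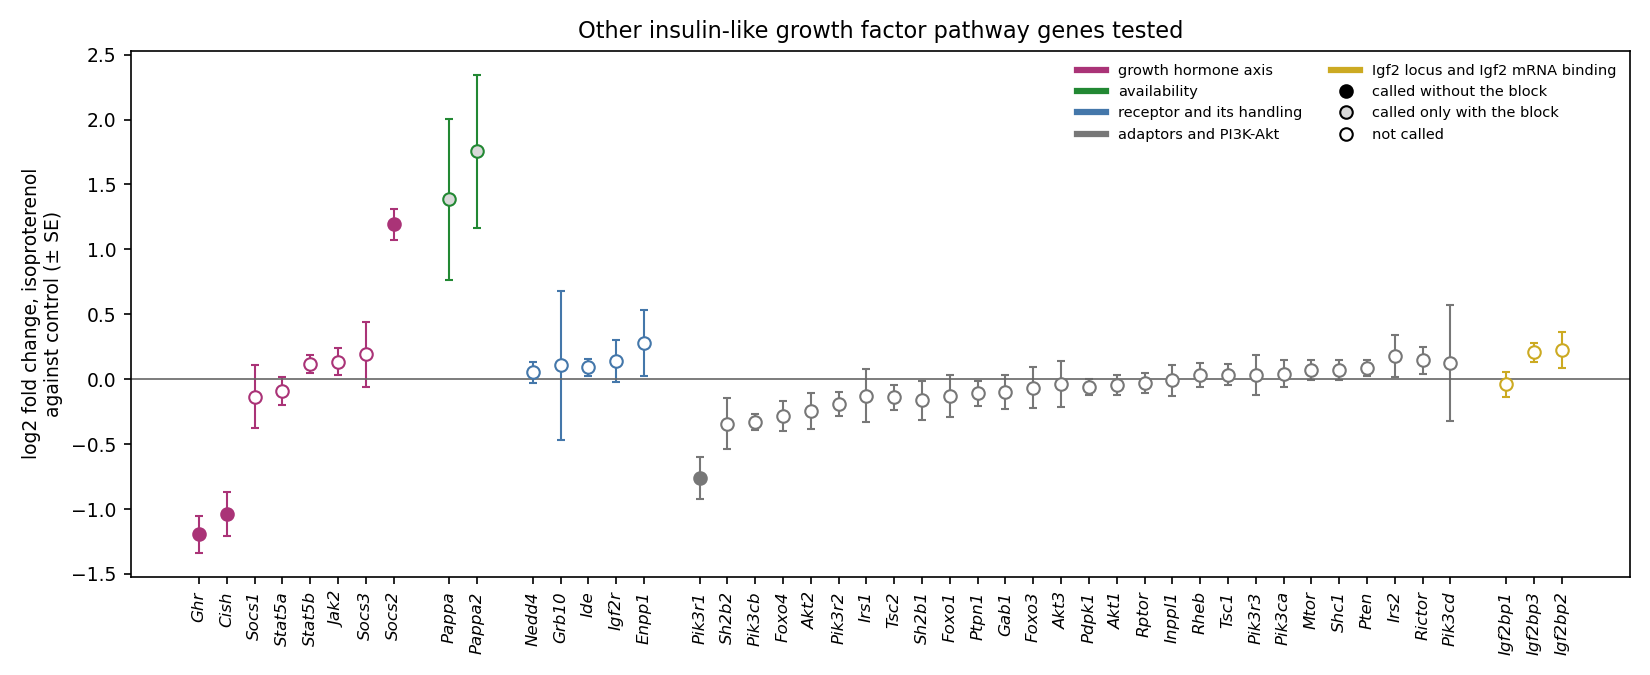
Log2 fold change under isoproterenol averaged over both plasmids (y axis, edgeR estimate ± SE without the block) of the 46 tested pathway genes (x axis), coloured by role. Filled points were called without the block (*Ghr*, *Cish*, *Socs2*, *Pik3r1*), light grey points only with it (*Pappa*, *Pappa2*).

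Markers of cell types moved with isoproterenol as well. All 8 adipocyte markers had negative log2 fold changes, with a median of −0.55, and 4 were called lower: *Adipoq* at −1.06, *Lipe* at −0.69, *Pnpla2* at −0.67 and *Cidec* at −0.54, against 1.32% of all genes, whereas *Pparg* was at −0.06 and *Lpl* at −0.01. With the block 5 were called lower, *Plin1* in addition (log2 fold change −0.57, edgeR adjusted p 0.000217), against 2.61% of all genes. Their summed level ranged from 16812 to 27645 CPM in empty vector control, 12757 to 22332 CPM in stimulated empty vector, 20437 to 25960 CPM in sgRNA control and 13709 to 23912 CPM in stimulated sgRNA libraries. Of the 10 preadipocyte and fibroblast markers 6 were tested and 0 called in edgeR without the block. With it 1 was called, *Ly6a*, against 3.09% of all genes called higher. *Ly6a* was higher after isoproterenol in 8 of 8 pairs (log2 fold change 1.09, edgeR adjusted p 4.92e-06). Of the 6 smooth muscle and mural markers 4 were tested, all with negative log2 fold changes, and 0 were called without the block. With it 3 were called lower, *Acta2*, *Myh11* and *Tagln*, against 2.61% of all genes. *Myh11* and *Tagln* were low, at most 3.37 and 4.64 CPM. Of the 5 endothelial markers 1 was tested (*Pecam1*, log2 fold change −0.25, not called). Of the 5 macrophage markers 1 was tested, *Cd68*, which rose by 0.91 on the log2 scale and is a lysosomal gene that other cells also express. The part of these markers in the fall of *Igf1* was not tested.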

How the data were processed

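The authors trimmed reads with cutadapt and quantified transcripts with Salmon against a GENCODE transcriptome, and the submitters' processing notes also name bcl2fastq, DESeq2 and the build GRCm38, without versions. The authors deposited estimated counts per gene, whole and not normalized. Use of read strand was not stated. Groups and replicate numbers came from the sample titles, and every column of values matched 1 sample. In R 4.3.3 with edgeR 4.0.16, genes were kept by filterByExpr (minimum count 10, minimum total 15), libraries were scaled by TMM, and 4 group means were fitted to all 16 libraries and tested with glmQLFTest, two-sided, with adjustment over all 13150 genes. The SE was derived from the log2 fold change and the F statistic, and log2 CPM used a prior count of 2. Every member was named. Of the pathway list, genes called in either fit were named, with *Irs1*, *Irs2*, *Igf2r* and *Ghr* whatever their values. For likeness, the 3 genes with the highest correlation were taken for each of the 3 members with the largest isoproterenol effects. Members, lists and tests were chosen with earlier results of these data known. Deviations from group means correlated between libraries of the same replicate number in every pair (0.22 to 0.61, against −0.51 to 0.52 with a median of −0.21 for different numbers), so the titles' numbers were taken to pair the libraries. The median biological coefficient of variation was 18.0% without and 9.96% with the replicate block. Alternatives were the block, DESeq2 1.42.0, RLE factors, no filter, the block with the ribosomal RNA gene removed, its share as a covariate, no fold bound and libraries left out. Coordinates and exon lengths came from GENCODE vM21 (GRCm38), promoters from RefSeq (GRCm38.p6). The study's methods name a later GENCODE release for quantification, so exon lengths may differ from those of the counted models.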

Additional observations from a re-analysis of the deposited data

How the results depend on the processing

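Over 35 results and 883 comparisons with an alternative setting, 821 kept their direction and their side of the threshold. The fall of *Igf1* under isoproterenol averaged over both plasmids was called under every setting, with a log2 fold change between −1.48 and −1.25 and an edgeR or DESeq2 adjusted p between 4.67e-10 and 0.0139. When single libraries or replicate numbers were left out of the fit without the block, the number of members called ranged from 0 to 1 in empty vector cells and from 0 to 1 in sgRNA cells, and the pathway genes called from 2 to 5. With the replicate block and replicate 4 left out, a setting chosen after seeing the data, 2 members were called in sgRNA cells, *Igf1* and *Igfbp7*. The shares of all genes called with libraries or replicate numbers left out are not given. None of these counts of members and pathway genes thus has a background beside it. In the blocked fit to all libraries, 1.83% of genes were called lower in sgRNA cells. With all libraries the replicate block changed no call among the members. Within each plasmid it kept the call of *Igf1* without any one replicate number, where the fit without the block lost it for some, and *Pappa* and *Pappa2* were called with it.

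Signs changed only for effects that were not called. Leaving out libraries gave log2 fold changes from −0.012 to 0.15 for *Igf1r* and from −0.027 to 0.31 for *Igfbp6* under isoproterenol. For the guides it gave −0.21 to 0.022 for *Igf1*, −0.088 to 0.033 for *Igf1r*, −0.14 to 0.085 for *Insr* and −0.038 to 0.30 for *Igfbp6*. Adjusted for the share of ribosomal RNA, the guide effect was 0.070 for *Igf1r* and 0.27 for *Insr*. In blocked fits, *Igf1r* under isoproterenol was −0.018 without replicate 5 and −0.0081 without replicate 6, *Igfbp6* −0.032 without replicate 4, the guide effect on *Igf1r* 0.013 without replicate 6, and the interaction of *Igf1* 0.030 with all replicates. The cause of these changes was not tested. Depth limits *Igf2*, *Igfbp2*, *Igfbp3*, *Igfbp5* and *Pappa*, which hold few counts in each library.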
